A study of Mus musculus with 9 samples.

Results

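The vesicle traffic genes described here are mouse genes whose symbol starts with Rab, Arf, Vps or Snx and a digit, with Sec and 2 digits, or with Copa, Copb, Copg or Copz, with Snx10 left out. They were chosen by name and by having a value on at least 2 of the 3 arrays of each group. The group was proposed, with Rab11fip4 named in it, when earlier results of these data were known. The name rule was met by 79 genes with 108 array features, of which 72 genes with 101 features had enough values, out of 4775 genes with enough values in the series. The 72 members are 19 Rab GTPases, 5 Rab effectors and regulators, 4 Arf GTPases, 5 genes of the COPII coat, 5 of the COPI coat, 5 of the translocon of the endoplasmic reticulum, 4 other Sec genes, 18 Vps genes and 7 sorting nexins. The name rule also takes in genes outside vesicle traffic, such as Vps72, a subunit of chromatin remodelling complexes, and Sec11a and Sec11c, the catalytic subunits of signal peptidase.

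Cargo moves between the membranes of a cell in coated vesicles. COPII coats bud from the endoplasmic reticulum, COPI coats work between and within the Golgi and back to the endoplasmic reticulum, and Arf GTPases recruit coats to membranes. Rab GTPases mark each compartment and, when bound to GTP, recruit effectors that move, tether and fuse the vesicles. Vps proteins and sorting nexins sort cargo at endosomes, either for return to the Golgi and the cell surface or for degradation in lysosomes. In bone and marrow the same machinery serves collagen secretion by osteoblasts, the resorbing membrane of osteoclasts and the granules of leukocytes and platelets.

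RNA of castrated and of sham-operated C57BL/6 mice was compared on dual-channel arrays, with both animals of a pair on the same array, 1 in Cy3 and 1 in Cy5. All treated mice had been castrated at 7 weeks, and the controls had sham surgery. The 3 groups of 3 arrays were bone of mice aged 17 weeks (young bone), marrow of mice aged 17 weeks (young marrow) and specimens labelled bone marrow of mice aged 59 weeks (old marrow). Each replicate of a group was a separate pair of mice, from femur, tibia and humerus, and it is not given in the sources used here if the same young mice gave both bone and marrow. The design text speaks of taking marrow out of bone for the young mice only, so the old specimens may hold bone too. Ratios carry no expression level, so the tissue labels could not be checked against the level of marker genes. All of the tissue was measured in bulk, so fewer cells of a type and less RNA per cell cannot be told apart.

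The values are the authors' log ratios, read here as log2. The labels describe every array as castrated against sham, so a value below 0 is read as lower in the castrated mouse; this castrated-over-sham reading is likely but not stated. On 3 arrays the castrated mouse was in Cy3 (young bone replicate 3, young marrow replicate 2 and old marrow replicate 2). If the ratio were Cy5 over Cy3 throughout, the sign of those 3 arrays would turn, which is called the channel reading below. The 6 arrays with the castrated mouse in Cy5 have the same sign under both readings. Arrays held 8290 to 10995 values. Old marrow replicate 1 stood apart from the rest, with an SD over features of 0.455 against 0.192 to 0.294 on the other 8 arrays, and with a median of -0.11 over the rows tested. The main member counts, the member median and some subfamily medians of old marrow are also given without it. So are values of Rab2b, Sec23b and Sec23a. The old marrow medians of the marker lists and related gene lists include this array. A limma fit with 1 coefficient per group and a dye term was run over 7170 rows, which are the 4775 genes and 2395 features without a gene name, and p-values were adjusted over all of them by Benjamini-Hochberg, with a threshold of 0.05.

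A single vesicle traffic gene passed the adjusted p threshold in the fit of all 9 arrays, which does not exclude smaller changes in the others. Rab11fip4, an effector that binds Rab11 GTPases of recycling endosomes and also binds Arf GTPases, fell in castrated mice by 0.40 on the log2 scale in the average over the 3 groups (SE 0.054, n = 9 arrays, limma adjusted p = 0.0029). That is a 1.32-fold lower ratio. It was the only one of 72 members called in the average, where 3.91% of all rows were called. It was also the only member called in young marrow, against 0.739% of all rows (4 of 72 at an unadjusted p under 0.05, against 10.3%), and the only one called in old marrow, against 0.851%. No member was called in young bone by limma, where 0.321% of all rows were, and 3 members lay at an unadjusted p under 0.05 there, against 8.52% of all rows. Under the channel reading no member was called by limma in any of the 7 comparisons, and 0.0% of all rows were called in each. Without old marrow replicate 1 no member was called in old marrow, against 0.404% of all rows. Without old marrow replicate 3 the old marrow count was 7 of 72 (9.72%), but 16.0% of all rows were called in that fit. The 7 were Rab11fip4, Sec14l1, Arf2, Copz1 and Rab28 below 0 and Rab2b and Sec23b above it.

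The Rab11fip4 ratio (gene ID 268451, 1 feature) was -0.01, -0.13 and 0.02 on the 3 young bone arrays. It was -0.76, -0.68 and -0.77 on the young marrow arrays, and -0.74, -0.34 and -0.44 on the old marrow arrays. All 6 marrow arrays lay below all 3 bone arrays, a pattern not counted over all rows, and old and young marrow overlapped. The fitted change was -0.71 in young marrow (SE 0.09, n = 3, limma adjusted p = 0.00721, a 1.64-fold lower ratio), -0.48 in old marrow (SE 0.09, n = 3, limma adjusted p = 0.042, a 1.40-fold lower ratio) and -0.02 in young bone (SE 0.09, n = 3, limma adjusted p = 1.0). The difference of young marrow from young bone was -0.70 (95% interval -0.97 to -0.42), but its limma adjusted p was 0.401 over all rows, a comparison in which 0.0% of rows passed. The difference of old marrow from young bone was -0.47 (95% interval -0.74 to -0.19, limma adjusted p = 0.679). A difference between marrow and bone was thus not called.

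**Figure D1:**
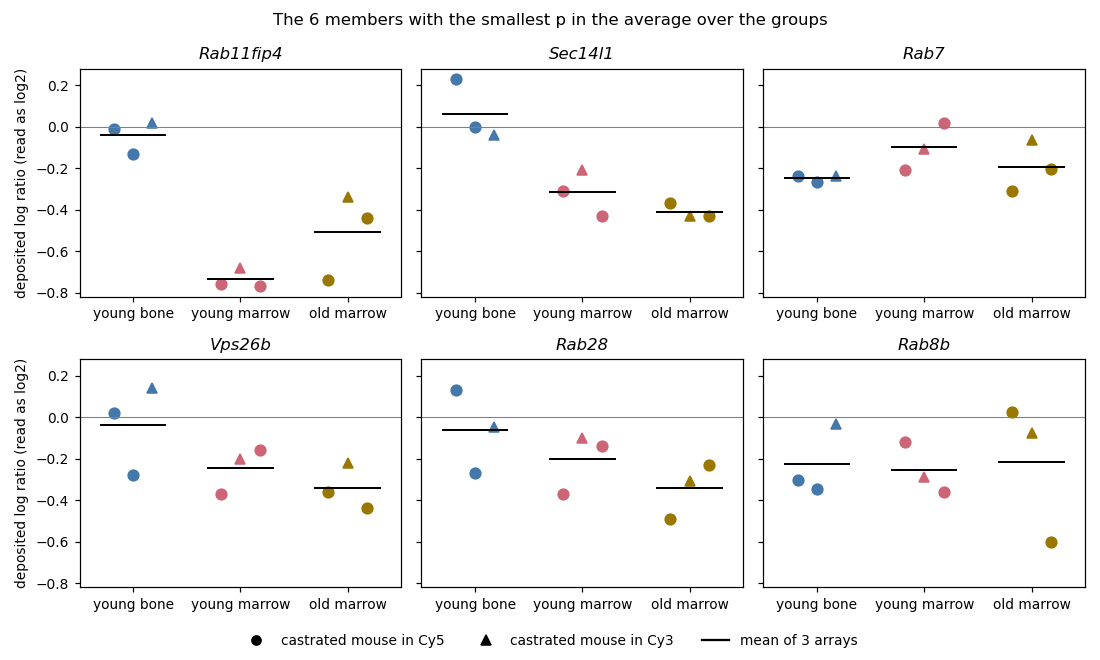
Deposited log ratio (vertical axis, read as log2) on each array for the 6 members with the smallest p in the average, by group (horizontal axis); circles have the castrated mouse in Cy5, triangles in Cy3, and bars are means of 3 arrays. Rab11fip4 lies between -0.77 and -0.34 on the 6 marrow arrays and between -0.13 and 0.02 on the 3 young bone arrays.

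The call of Rab11fip4 in the average held when any of the 9 arrays was left out, with values from -0.43 to -0.38 and limma adjusted p from 0.00125 to 0.0465. On the 6 arrays with the castrated mouse in Cy5 alone, the average was -0.48 (SE 0.07, limma adjusted p = 0.0321), where 0.979% of rows were called. On those arrays neither marrow value passed, at -0.77 in young marrow (limma adjusted p = 0.125) and -0.59 in old marrow (limma adjusted p = 0.236). The young marrow call was lost when young marrow replicate 1, 2 or 3 was left out (limma adjusted p = 0.0891, 0.232 and 0.0719), although the value stayed between -0.73 and -0.68. The old marrow call was lost when any array except old marrow replicate 3 was left out, with values from -0.55 to -0.39 and limma adjusted p from 0.0607 to 0.395. It was also lost with the replicate number as a block (-0.49, limma adjusted p = 0.0703) and with arrays scaled to equal spread (-0.45, limma adjusted p = 0.162). Under the channel reading the average was -0.07 (95% interval -0.31 to 0.17, limma adjusted p = 0.902).

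Markers of blood cell types moved on the same arrays. All 7 measured of 12 B lymphocyte markers were higher in the average, with array medians of 0.59 to 0.98 in young bone, 0.87 to 1.12 in young marrow and 0.78 to 1.16 in old marrow. All 6 measured of 12 granulocyte markers were lower, with array medians of -0.77 to -0.37, -0.60 to -0.40 and -0.67 to -0.27. Padi4, a histone citrullinating enzyme of neutrophils, was at 0.02, -0.19 and -0.25 in young bone, at -0.54, -0.57 and -0.52 in young marrow and at -0.64, -0.33 and -0.25 in old marrow. Mmp9, a matrix metalloproteinase of osteoclasts and neutrophils, was at -0.36, -0.28 and 0.07, at -0.74, -0.59 and -0.79, and at -0.61, -0.48 and -0.32. For these 2 genes, picked after their values were seen, all 3 young marrow arrays lay below all 3 young bone arrays, as for Rab11fip4. The other 5 granulocyte markers (Lyz2, Ctsg, Prtn3, Anxa1 and Il1r2) and the other osteoclast marker, Atp6v1b2, overlapped between young marrow and young bone. Of the other lists, 2 of 4 megakaryocyte and 3 of 4 adipocyte markers were higher and 1 of 2 osteoclast markers lower, while 0 of 2 erythroid, 0 of 4 osteoblast and 0 of 6 skeletal muscle markers passed in limma (0, 4 and 0 at an unadjusted p under 0.05). The average hides opposite values between groups for muscle, and unequal values for the osteoblast markers. The median of the muscle markers was -0.70 in young bone, where 6 of 6 lay at an unadjusted p under 0.05, and -0.08 in young marrow. It was 0.55 in old marrow, where 2 of 6 lay at such a p. The median of the osteoblast markers was 0.72, 0.59 and -0.07 in the same order, with 4, 3 and 0 of 4 at an unadjusted p under 0.05. The part of these cell types in the Rab11fip4 values was not tested.

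None of the other 4 Rab effectors and regulators passed the test. Rab11fip5, another Rab11 effector, was at -0.12, 0.07 and -0.14 in young bone, at 0.06, -0.23 and 0.18 in young marrow and at -0.32, 0.12 and -0.09 in old marrow. Each group thus had both signs. Rab11a, the GTPase that both effectors bind, averaged 0.01 (limma adjusted p = 0.968), and Rab25, a close relative of Rab11a in epithelia, averaged -0.12 (adjusted p = 0.395). Rab3gap2, the non-catalytic subunit of a complex that acts on Rab3 and Rab18, averaged -0.09. Rab3il1, which activates Rab3 and Rab8, averaged -0.03. Rab3ip, which activates Rab8, was the highest of the 5 at 0.00 and had values on 7 arrays.

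**Figure D2:**
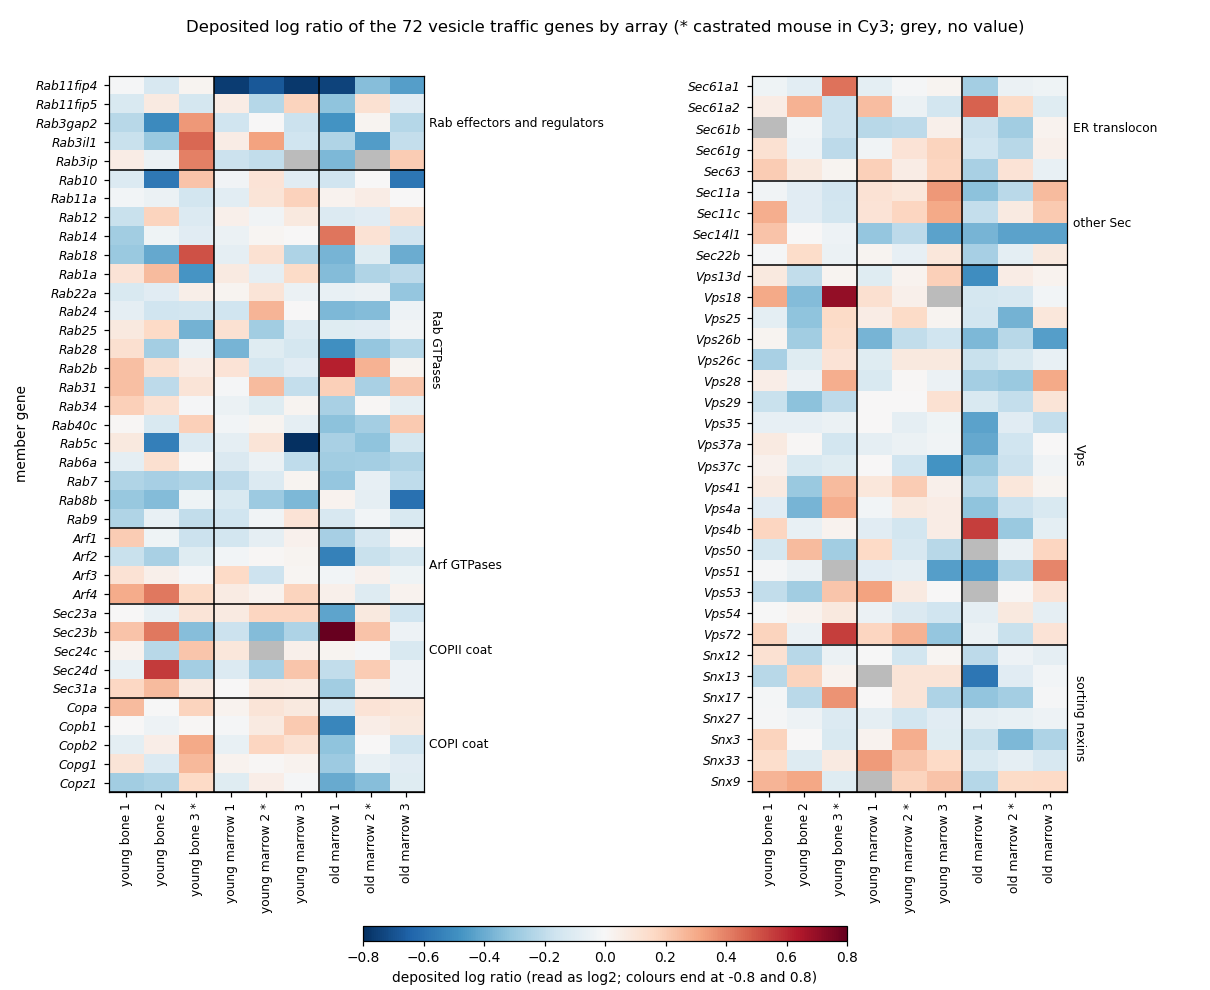
Deposited log ratio (colour, read as log2) of the 72 members (rows, grouped by subfamily) on the 9 arrays (columns, 3 per group; an asterisk marks the castrated mouse in Cy3). Rab11fip4 is the darkest blue row over the 6 marrow columns, and the column of old marrow replicate 1 is blue for 60 of its 70 values.

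Outside Rab11fip4, 9 members lay at an unadjusted p under 0.05 in the average, all of them below 0. Together with Rab11fip4 that is 10 of 72, or 13.9%, against 16.0% of all rows and against 9.04% of all rows when only values below 0 are counted. They were Sec14l1, Rab7, Vps26b, Rab28, Rab8b, Arf2, Rab6a, Sec61b and Vps37c, with values of -0.22 to -0.12 and limma adjusted p of 0.0528 to 0.307. The 95% interval of the average lay within -0.5 and 0.5 for 70 of the 72 members, the exceptions being Rab11fip4 and Rab5c, and the median interval reached 0.14 to either side. Changes in the average larger than 0.5 on the log2 scale were thus outside the interval for the other 70. In single groups the median interval reached 0.23 to either side.

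**Figure D3:**
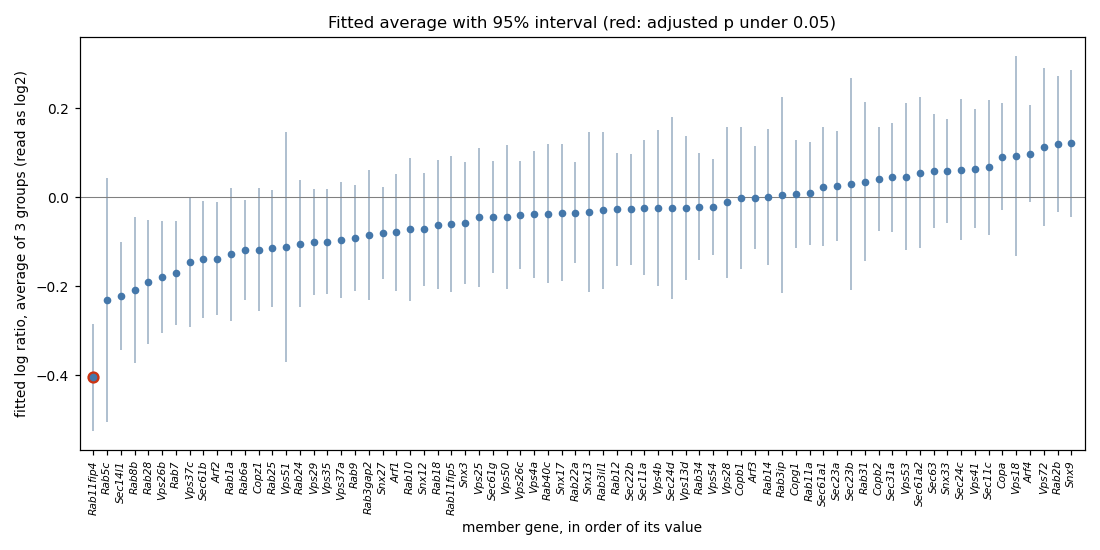
Fitted log ratio of the average over the 3 groups (vertical axis, read as log2; points) with its 95% interval (lines) for the 72 members in order of value (horizontal axis). The values run from -0.40 for Rab11fip4, marked red as the only call, to 0.12 for Snx9.

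Sec14l1, a SEC14-like protein with a lipid-binding domain (gene ID 74136), came nearest to a call after Rab11fip4. Its ratio was 0.23, 0.00 and -0.04 in young bone, -0.31, -0.21 and -0.43 in young marrow and -0.37, -0.43 and -0.43 in old marrow. As with Rab11fip4, all 6 marrow arrays lay below all 3 bone arrays, a pattern whose share over all rows was not counted. The average was -0.22 (SE 0.055, limma adjusted p = 0.0528), and without the dye term it passed (-0.22, limma adjusted p = 0.0268), where 5.62% of all rows were called. The old marrow value was -0.41 (SE 0.091, adjusted p = 0.085), and the difference of old marrow from young bone was -0.47 (95% interval -0.75 to -0.19, adjusted p = 0.679). Under the channel reading its average was 0.00.

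Rab11fip4, Sec14l1, Vps26b, Rab28, Rab6a and Snx27 were the 6 of 65 members below 0 on all 6 marrow arrays, a share of 9.23% against 6.03% of all rows. Vps26b, a subunit of the retromer coat that returns cargo from endosomes (gene ID 69091), was at 0.02, -0.28 and 0.14 in young bone, at -0.37, -0.20 and -0.16 in young marrow and at -0.36, -0.22 and -0.44 in old marrow. Rab28, a GTPase known from photoreceptor cilia (gene ID 100972), was at 0.13, -0.27 and -0.05, at -0.37, -0.10 and -0.14, and at -0.49, -0.31 and -0.23. Both averaged below 0 without passing, at -0.18 for Vps26b (SE 0.056, limma adjusted p = 0.13) and at -0.19 for Rab28 (SE 0.063, limma adjusted p = 0.147).

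The promoters of 3 of these 6 genes are shown because castration withdraws androgen, whose receptor binds DNA through the hexamer AGAACA. The 250 bases before the start of the promoter entry, 5′ to 3′ on the strand of the gene, were read from RefSeq on GRCm38.p6. The windows are chr11:117114918-117115167 on the plus strand for Sec14l1, chr9:27030095-27030344 on the minus strand for Vps26b and chr5:41708180-41708429 on the minus strand for Rab28. Sec14l1 has 2 starts listed, of which the upstream one is shown. The last 14 bases of the Rab28 window lie inside the span of the gene in the RefSeq gene table, and the other windows lie outside theirs. Capitals mark AGAACA or its reverse complement TGTTCT.
Sec14l1: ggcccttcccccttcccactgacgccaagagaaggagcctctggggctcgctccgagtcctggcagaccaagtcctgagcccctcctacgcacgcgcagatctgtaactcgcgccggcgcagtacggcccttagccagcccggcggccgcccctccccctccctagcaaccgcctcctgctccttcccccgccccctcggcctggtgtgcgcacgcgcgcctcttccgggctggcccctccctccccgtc
Vps26b: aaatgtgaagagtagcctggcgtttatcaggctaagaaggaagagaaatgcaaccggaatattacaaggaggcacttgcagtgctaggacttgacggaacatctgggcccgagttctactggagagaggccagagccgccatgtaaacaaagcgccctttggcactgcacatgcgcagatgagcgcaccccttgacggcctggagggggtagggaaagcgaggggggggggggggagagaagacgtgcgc
Rab28: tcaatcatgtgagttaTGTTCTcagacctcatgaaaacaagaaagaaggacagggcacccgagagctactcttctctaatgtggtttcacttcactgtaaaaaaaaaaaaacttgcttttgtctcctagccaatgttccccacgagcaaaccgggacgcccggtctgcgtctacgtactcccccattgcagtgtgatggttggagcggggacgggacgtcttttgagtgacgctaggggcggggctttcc
The hexamer occurred 1 time before Rab28 and in neither of the other 2 windows. Counted on both strands, it was found in the window of 8 of the 61 members with a promoter entry (13.1%) and of 4369 of all 27025 genes with one (16.2%). The windows differed in their bases, with a median of 18 CG pairs for members and 6 for all genes, so the 2 shares are not strictly comparable. The members with a match were Rab11a, Rab25, Rab28, Rab5c, Sec11a, Snx3, Vps26c and Vps4b. Rab6a, another of the 6 genes, has an entry without a match, and its window is not shown. Rab11fip4 was among the 11 members not matched to an entry. A match is a run of letters and not a measured binding site.

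The Rab GTPases were the largest subfamily, with 14 of 19 group means below 0 in young bone, 13 in young marrow and 15 in old marrow. These are 73.7%, 68.4% and 78.9%, against 50.6%, 52.2% and 58.5% of all rows. The median of the Rab GTPases over the 3 groups' fitted average was -0.07, against 0.00 over all rows tested. Among those of the endoplasmic reticulum and Golgi, Rab6a, which serves transport within and from the Golgi, was at -0.08, 0.13 and 0.00 in young bone, at -0.12, -0.05 and -0.21 in young marrow and at -0.28, -0.27 and -0.24 in old marrow. As means of 2 features, the 3 old marrow arrays were within 0.04 of each other and below all others. Taken singly, the features were at -0.36, -0.14 and -0.30 and at -0.20, -0.40 and -0.18 there. Each overlapped its own young marrow values, which reached -0.21 and -0.20. The old marrow value of -0.26 did not pass (SE 0.084, limma adjusted p = 0.199). Rab1a, which acts between the endoplasmic reticulum and the Golgi, averaged -0.13, with old marrow at -0.35, -0.24 and -0.21. Rab2b, a relative of the Golgi GTPase Rab2a, was the highest Rab GTPase at 0.12 (adjusted p = 0.469), and its 0.62 on old marrow replicate 1 was well above the 0.28 and 0.02 on the other old marrow arrays. Its old marrow value was 0.29 with that array and 0.15 without it.

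Among the endosomal Rab GTPases, Rab7, which directs late endosomes to lysosomes, was the steadiest in young bone, at -0.24, -0.27 and -0.24. It was at -0.21, -0.11 and 0.02 in young marrow and at -0.31, -0.07 and -0.21 in old marrow, and both of its features averaged below 0. Its average was -0.17 (SE 0.052, 95% interval -0.29 to -0.05, limma adjusted p = 0.12). Rab9, which returns cargo from late endosomes to the Golgi, was below 0 on 8 of 9 arrays and averaged -0.09 (adjusted p = 0.478). Rab5c, of early endosomes, had the lowest average of the Rab GTPases at -0.23, but its SE of 0.12 was the largest of the members, and a single array, young marrow replicate 3 at -1.17, stood far below the -0.07 and 0.10 of the other young marrow arrays. Rab14, of early endosomes and the Golgi, averaged 0.00.

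Among the Rab GTPases of secretion, Rab8b, which brings vesicles to the cell surface, was below 0 on 8 of 9 arrays. Its values were -0.31, -0.35 and -0.04 in young bone, -0.12, -0.29 and -0.36 in young marrow and 0.03, -0.08 and -0.60 in old marrow, so that its spread was largest in old marrow. The average was -0.21 (SE 0.074, limma adjusted p = 0.182). Rab10, which carries vesicles to the cell surface, and Rab18, of lipid droplets and the endoplasmic reticulum, were below 0 on both Cy5 arrays of young bone and above 0 on its Cy3 array. Rab18 was at -0.30 and -0.41 against 0.51 there, and Rab10 was at -0.11 and -0.57 against 0.23.

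The 4 Arf GTPases differed among themselves. Arf4, which acts at the Golgi and in traffic to cilia, had the highest group mean of all members in young bone, at 0.30, 0.42 and 0.15 (fitted value 0.26, SE 0.081, limma adjusted p = 0.309). It was at 0.07, 0.03 and 0.18 in young marrow and at 0.04, -0.11 and 0.03 in old marrow, and its 2 features agreed in sign on all young bone arrays. All 3 young bone arrays lay above all old marrow arrays (difference of old marrow from young bone -0.30, 95% interval -0.55 to -0.05, adjusted p = 0.679). Arf2, a further Golgi Arf, was at -0.18, -0.26 and -0.10 in young bone, at -0.02, 0.01 and 0.02 in young marrow and at -0.54, -0.18 and -0.14 in old marrow. The young marrow arrays of Arf2 lay above all others. Arf1 and Arf3 averaged -0.08 and 0.00 and did not pass.

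In the COPII coat, all 5 group means were above 0 in young bone, from 0.01 to 0.16, while 50.6% of all rows were below 0 there. Sec31a, of the outer coat, was at 0.17, 0.25 and 0.07 in young bone, above its young marrow values of 0.00, 0.07 and 0.06 and its old marrow values of -0.28, 0.04 and -0.04 (young bone 0.17, SE 0.092, limma adjusted p = 0.717). Its lowest young bone value, 0.0733, was barely above its highest young marrow value, 0.07. A feature of Sec31a was at -0.04 on young bone replicate 3 against 0.13 on young marrow replicate 3. Another was at 0.01 on young bone replicate 3 against 0.05 on young marrow replicate 2. The remaining feature kept these groups apart. Sec23b, of the inner coat, had the widest spread of the coat genes. It was at 0.23, 0.42 and -0.34 in young bone, at -0.17, -0.35 and -0.25 in young marrow and at 1.09, 0.23 and -0.04 in old marrow. Old marrow lay above young marrow on every array (difference 0.68, 95% interval 0.13 to 1.23, adjusted p = 0.338), and the value of 1.09 is from old marrow replicate 1. Without that array the difference was 0.39 (limma adjusted p = 0.731) and the old marrow value went from 0.37 to 0.10. The old marrow value of Sec23b was 0.66 without old marrow replicate 3 and was called (limma adjusted p = 0.0116). Its relative Sec23a differed the other way, by -0.30 (95% interval -0.59 to -0.02, adjusted p = 0.338), with old marrow values of -0.42, 0.08 and -0.16, and by -0.20 without old marrow replicate 1. Sec24c and Sec24d, which select cargo, averaged 0.06 and -0.02.

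In the COPI coat, Copz1, the zeta subunit, was the lowest, with an average of -0.12 (limma adjusted p = 0.414) and old marrow values of -0.40, -0.34 and -0.10. Copa, the alpha subunit, was the highest, with an average of 0.09 (adjusted p = 0.485) and values above 0 on 7 of 9 arrays. Copb1, Copb2 and Copg1 averaged between 0.00 and 0.04, and none of the 5 passed the test.

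Of the translocon genes, Sec61b, a small subunit of the protein-conducting channel, averaged -0.14 over 8 arrays (limma adjusted p = 0.281). Sec63, a partner of the channel in protein import, averaged 0.06 and was above 0 on all 6 young arrays. Among the other Sec genes, Sec11c and Sec11a were both above 0 on all 3 young marrow arrays, at 0.11, 0.17 and 0.30 for Sec11c and at 0.12, 0.09 and 0.35 for Sec11a. Their fitted young marrow values of 0.18 and 0.16 did not pass (limma adjusted p = 0.631 and 0.666).

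The 18 Vps genes belong to several complexes. Of the retromer subunits, Vps35, the scaffold, averaged -0.10 (limma adjusted p = 0.421), with old marrow at -0.43, -0.09 and -0.19. Vps29, which joins the scaffold, was at -0.18, -0.33 and -0.21 in young bone, at 0.00, 0.00 and 0.12 in young marrow and at -0.12, -0.19 and 0.10 in old marrow. Its young bone value was -0.25 (SE 0.089, adjusted p = 0.396), and young bone lay below young marrow on all arrays (difference of young marrow from young bone 0.28, 95% interval 0.01 to 0.55, adjusted p = 0.969). The group means of Vps26b were lowest in old marrow, and those of Vps29 in young bone. Of the ESCRT genes, which sort cargo for degradation, Vps37c averaged -0.15 (adjusted p = 0.307), and Vps25, Vps28, Vps37a, Vps4a and Vps4b averaged between -0.10 and -0.01. The highest Vps gene was the chromatin gene Vps72, at 0.11 (adjusted p = 0.592), with 0.55 on young bone replicate 3 against 0.18 and -0.05 on the other young bone arrays.

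Of the sorting nexins, Snx27, which links cargo to retromer, was the only member below 0 on all 9 arrays, out of 63 with a value on all of them, where 2.41% of all rows were. Its values ran from -0.15 to -0.01 and its average was -0.08 (SE 0.047, limma adjusted p = 0.474), so a single sign went with a small size. Snx33, which remodels membrane in endocytosis, was above 0 in young marrow at 0.34, 0.22 and 0.16 and below 0 in old marrow at -0.13, -0.08 and -0.13 (difference -0.35, 95% interval -0.62 to -0.08, adjusted p = 0.338). Snx3, a partner of retromer, was at 0.03, 0.29 and -0.10 in young marrow and at -0.18, -0.36 and -0.25 in old marrow (difference -0.34, 95% interval -0.66 to -0.02, adjusted p = 0.338). Snx9, an endocytic relative of Snx33, had the highest average of all members at 0.12 (adjusted p = 0.509).

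Compared by group, the member median was lowest in old marrow, by about the spread of its 3 arrays. The median over the 72 group means was -0.02 in young bone (SD 0.038 over the medians of the 3 arrays), 0.00 in young marrow (SD 0.020) and -0.11 in old marrow (SD 0.12). The medians over all rows tested were 0.00, -0.01 and -0.05. On the old marrow arrays the member medians were -0.26, -0.09 and -0.04, against -0.11, -0.01 and -0.01 over all rows. The fitted old marrow value was below 0 for 59 of 72 members (81.9%), against 57.8% of all rows, and the average was below 0 for 50 of 72 (69.4%), against 51.3%. Without old marrow replicate 1 the old marrow count was 49 of 72 (68.1%) against 52.1% of all rows, and the median was -0.06. With each array centred on its median the old marrow count was 53 of 72 (73.6%) against 49.6%. The count for the average was 43 of 72 (59.7%) without old marrow replicate 1, against 53.9% of all rows. Under the channel reading the count for the average was 43 of 72 (59.7%) against 50.8%. The old marrow count was then 48 of 72 (66.7%) against 53.9%. Markers of other tissues also stood apart in old marrow. The 6 muscle markers had a median of 0.55 there, with array medians of 0.16 to 1.04 and with Mb at 1.70 and Ckm at 1.56 on replicate 1. The 4 adipocyte markers had a median of 1.08, with array medians of 0.78 to 1.45, against 0.73 in young bone and 0.33 in young marrow. Their part in the member values was not tested.

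Single genes in old marrow were then counted by their p. At an unadjusted p under 0.05, 12 of 72 members (16.7%) lay in old marrow against 18.5% of all rows, and 11 of them (15.3%) were below 0 against 8.98% of all rows. The 11 were Rab11fip4, Sec14l1, Vps26b, Rab28, Rab6a, Arf2, Rab1a, Snx3, Vps35, Copz1 and Rab24, with values of -0.48 to -0.23, and Rab2b was above 0. Without old marrow replicate 1 the count was 6 of 72 (8.33%) against 8.34% of all rows, all 6 below 0, against 4.06%. The 6 were Rab11fip4, Sec14l1, Vps26b, Rab6a, Snx3 and Rab8b. Members are genes measured on the same arrays and are not replicates of each other.

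**Figure D4:**
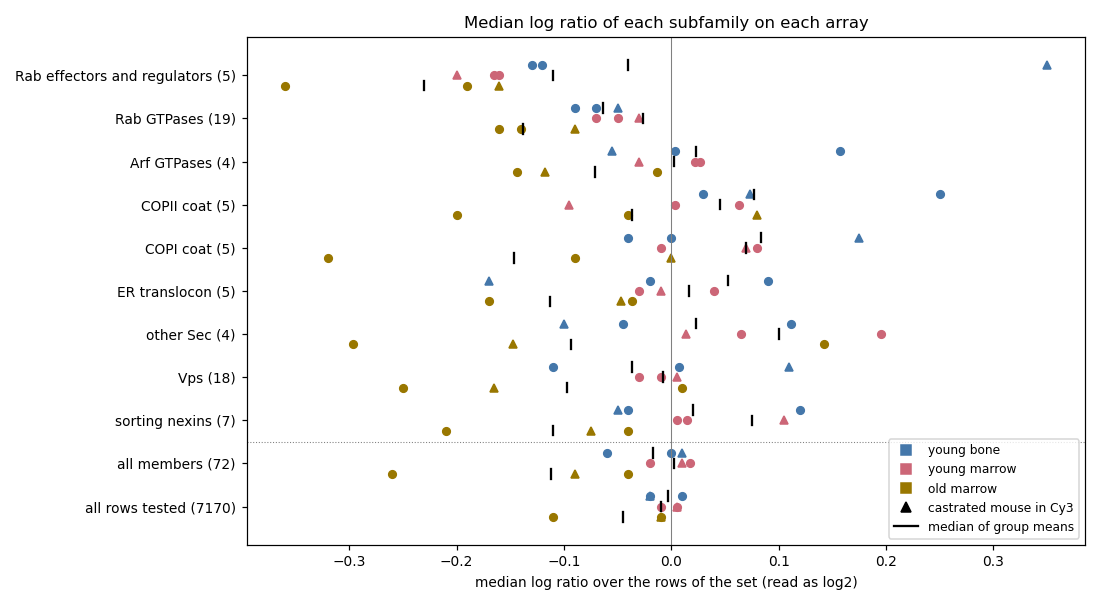
Median log ratio (horizontal axis, read as log2) over the members of each subfamily, over all 72 members and over all 7170 rows tested (vertical axis, number of rows in brackets) on each array; colours are groups, triangles have the castrated mouse in Cy3, and black ticks are medians of the group means. In old marrow the black tick lies below 0 in all 9 subfamilies, from -0.23 to -0.04.

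The order of the subfamilies in old marrow ran from the Rab effectors (-0.23), COPI (-0.15), the Rab GTPases (-0.14), the translocon (-0.11), the sorting nexins (-0.11), Vps (-0.10), other Sec (-0.09) and Arf (-0.07) to COPII (-0.04). Neighbours in this order differed by less than the SD over arrays, which was 0.036 for the Rab GTPases and 0.069 to 0.22 for the others. The order changed without old marrow replicate 1. The Rab GTPases were then lowest at -0.14, the Rab effectors stood at -0.11 and COPI at -0.08, and COPII and other Sec were at 0.00 and 0.01. In young bone the subfamily medians lay between -0.06 for the Rab GTPases and 0.08 for COPI, and in young marrow between -0.11 for the Rab effectors and 0.10 for other Sec. The Rab GTPases and the Rab effectors were the subfamilies with a median below 0 in all 3 groups, together with Vps.

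Direct comparison of the groups called no member on all arrays; without old marrow replicate 3, Rab2b and Sec23b were called in old against young marrow, where 10.6% of all rows were called. Both have their highest value on old marrow replicate 1, at 0.62 and 1.09. In young marrow against young bone 3 of 72 members lay at an unadjusted p under 0.05 by limma (Rab11fip4, Sec14l1 and Vps29), or 4.17% against 4.67% of all rows. In old against young marrow 4 did (Snx33, Sec23b, Sec23a and Snx3), or 5.56% against 14.7%, and 0.0% of rows were called. In old marrow against young bone 5 did (Sec14l1, Rab11fip4, Arf4, Rab6a and Vps26b), or 6.94% against 6.82%, and 0.0139% of rows were called. Groups that did not overlap were counted as well. Young marrow lay wholly below young bone for 4 of 65 members (6.15%, against 3.96% of all rows) and wholly above for 5 (7.69%, against 6.89%). Old marrow lay wholly below young marrow for 10 of 65 (15.4%, against 11.7%) and above for 1, Sec23b (1.54%, against 9.54%). Old marrow lay wholly below young bone for 7 of 67 (10.4%, against 4.7%) and above for 1, Rab11a (1.49%, against 3.39%). Without old marrow replicate 1, old marrow lay below young marrow for 10 of 67 (14.9%, against 12.9%) and above for 3 (4.48%, against 13.4%). It then lay below young bone for 8 of 69 (11.6%, against 5.83%) and above for 3 (4.35%, against 6.95%).

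The choice of reading decided the calls. Under the channel reading 0 of 72 members and 0.0% of all rows were called by limma in the average, and 4 members lay at an unadjusted p under 0.05, or 5.56% against 4.7% of all rows. In young bone 5 did (6.94% against 6.56%), in old against young marrow 2 (2.78% against 0.697%) and in old marrow against young bone 1 (1.39% against 3.85%). None did in young marrow (0.781% of all rows), in old marrow (2.37%) or in young marrow against young bone (1.48%). The 4 in the average were Rab18 (-0.24), Rab3gap2 (-0.21), Rab25 (0.14) and Rab10 (-0.19), each with a limma adjusted p of 0.893. In young bone 21 of 70 members (30.0%) had the Cy3 array of opposite sign to both Cy5 arrays, against 32.7% of all rows. In young marrow 12 of 67 (17.9%) did, against 13.2%, and in old marrow 11 of 69 (15.9%), against 14.2%. Across the 63 members with all values, Pearson r of the young bone Cy3 array was -0.12 and -0.41 with its group mates, which correlated at 0.41. In young marrow the Cy3 array correlated at 0.53 and 0.28 with the others, and in old marrow at 0.38 and 0.10. These correlations are across genes that share arrays and their normalization, and serve as a description.

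**Figure D5:**
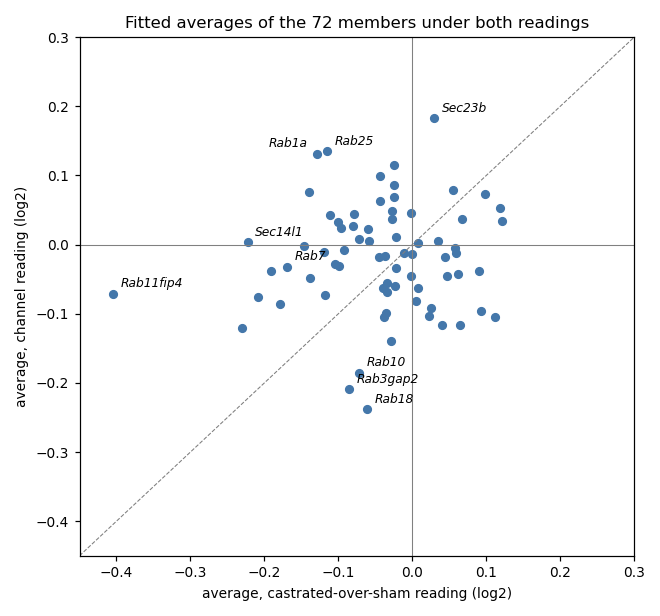
Fitted average over the 3 groups for each of the 72 members under the castrated-over-sham reading (horizontal axis, log2) and under the channel reading (vertical axis, log2); the dashed line marks equal values. Rab11fip4 lies at -0.40 and -0.07, and Rab18 lies at -0.06 and -0.24.

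Of the 72 members, 23 were measured by more than 1 feature. Pairs of features with the same accession differed by a median of 0.06 over arrays (11 pairs), and pairs with different accessions by 0.10 (24 pairs). The features disagreed most for Arf3, whose feature means ran from -0.10 to 0.17, for Rab14 (-0.10 to 0.09) and for Vps37c (-0.21 to -0.04). The lowest array value of Vps37c, -0.48 on young marrow replicate 3, is from its lower feature alone, as the other had no value there. A Rab14 feature stood at 0.88 on old marrow replicate 1 while the other stood at -0.02. Rab11fip4, Sec14l1, Vps26b and Rab28 have 1 feature each, so no second feature bears on them.

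Of the 7 genes left out for missing values, Rab13 and Rab26 had values on all 3 young bone arrays and on no marrow array, a pattern shown by 2.85% of all features. Rab13, a GTPase of cell junctions, was at -0.07, -0.07 and 0.05, and Rab26, a GTPase of secretory granules, was at 0.05, 0.12 and -0.05. Rab38, Rab4a, Sec62, Snx21 and Snx7 had 1 to 3 marrow values each.

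In 6 related gene lists, 104 of 219 genes were measured, and 2 were called in the average, both lower and both clathrin adaptors. That is 2 of 104 against 3.91% of all rows, and 18 of 104 lay at an unadjusted p under 0.05 against 16.0% of all rows. The 104 genes together were thus near or under the share over all rows, while the shares of the single, short lists varied around it. Ap1s2, a small subunit of the adaptor of the Golgi and endosomes, averaged -0.37 (SE 0.073, limma adjusted p = 0.0209) and was below 0 on 9 of 9 arrays. Ap3s1, a small subunit of the adaptor that serves lysosome-related organelles, averaged -0.28 (SE 0.063, limma adjusted p = 0.0413) and was also below 0 on 9 of 9. The other 14 of 16 clathrin genes were not called. Of 25 SNARE genes, which drive membrane fusion, 0 were called and 3 lay at an unadjusted p under 0.05. The counts were 0 and 1 of 9 for ESCRT genes without the Vps name, 0 and 6 of 22 for regulators and relatives of Rab and Arf, 0 and 3 of 22 for tethers, and 0 and 2 of 10 for cargo receptors and other coat partners. By unadjusted p, the clathrin genes (3 of 16) and cargo receptors (2 of 10) lay near the 16.0% of all rows, and the regulators (6 of 22) above it. The SNARE, ESCRT and tether lists lay under it. In lists this short, 1 gene changes the share by several percent. The called clathrin genes (2 of 16) exceeded the 3.91% of all rows. Over the 104 genes the median average was -0.04, against -0.03 for the 72 members. The median in old marrow was -0.10, with 76.0% of the group means below 0, against 58.5% over all rows.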

How the data were processed

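Castrated and sham-operated mice were compared on 9 dual-channel arrays in 3 groups of 3. The authors deposited 1 log ratio per feature and array, read here as log2. Log base, ratio direction, background treatment and normalization are not given in the sources used here; arrays give no read depth, and their number limits the precision. Per the labels' protocols, RNA was extracted from pulverized specimens with TRIZOL and RNeasy and labelled through aminoallyl cDNA.

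Of 11552 features, 8885 had values on at least 2 arrays of each group. In the platform annotation 8050 features have 1 gene symbol, 672 several and 2830 none; those with several were not used. Features were averaged per gene. limma 3.58.1 in R 4.3.3 was fitted with 1 coefficient per group and a dye term (5 residual degrees of freedom), with Benjamini-Hochberg adjustment over 7170 rows. Missing values were not imputed. The fit was tested on simulated data. Python 3.11.15 and pandas 2.3.3 made the counts and medians.

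The members and gene lists were chosen with earlier results of these data known. Members were named by a rule: Rab11fip4, any called member, the smallest p per comparison and reading, members of 1 sign throughout, the highest and lowest of each subfamily by the average, and the 3 genes whose features differ most. Others, such as Rab11a, Rab11fip5 and the partners in a complex, were named for their known role or as part of a count, after their values were seen. Rab3ip was placed with the Rab regulators by its role. Alternatives were the channel reading, no dye term, Cy5 arrays alone, complete values, scaling, centring, 1 feature per gene, a replicate block and leaving out each array. Replicate numbers are shared between groups: deviations of same-numbered arrays correlated at 0.608, 0.279 and 0.295 between young and old marrow, at -0.096, -0.368 and -0.064 between young bone and young marrow and at -0.043, -0.111 and 0.412 between young bone and old marrow. The labels do not say that a number marks a shared batch.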

Additional observations from a re-analysis of the deposited data

Results flagged for a closer look

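Every array of 1 group lay on one side of 0 and every array of another on the opposite side for 4 of the 72 members. Each of the 4 had a value on all arrays of both groups. Vps18 and Snx13, each without a value on 1 young marrow array, were not counted. Their other young marrow values lay above 0 and their old marrow values below it. The share of all rows with this pattern was not counted, so the 4 cannot be set against it. Sec11a, the catalytic signal peptidase subunit, had a mean of -0.09 in young bone and 0.19 in young marrow (difference 0.28, limma adjusted p = 0.969). Snx33 had a mean of 0.24 in young marrow and -0.11 in old marrow (difference -0.35, limma adjusted p = 0.338). Copg1, the gamma subunit of COPI, had a mean of 0.02 in young marrow and -0.15 in old marrow (difference -0.17, limma adjusted p = 0.501). Rab11a had a mean of -0.07 in young bone and 0.03 in old marrow (difference 0.10, limma adjusted p = 0.807). None of the 4 differences passed the test. Sec11a and Rab11a each have a feature that showed the pattern and a feature that did not. The latter stood at 0.19 on young bone replicate 1 for Sec11a. For Rab11a it stood at 0.10 on young bone replicate 2 and at -0.21 on old marrow replicate 1.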

How the results depend on the processing

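Of the values of named genes under the alternatives, 2607 stayed on their side of the threshold, 7 passed it newly and 18 no longer passed. Of the 2607, 207 had the opposite sign to the value on all arrays, for values that were not called. In the average, 1 member was called; the count was 0 under the channel reading and 2 without the dye term. In young marrow the count of 1 became 0 under the channel reading, 0 on the Cy5 arrays alone and 0 to 1 when 1 array was left out. In old marrow the count of 1 became 0 under the channel reading, 0 on the Cy5 arrays alone, 0 with arrays scaled to equal spread, 0 with the replicate block and 0 to 7 when 1 array was left out, 7 being without old marrow replicate 3. With the replicate block the counts in the average and in young marrow were 1 each, and those of young bone and of the differences between groups were 0. In old against young marrow the count of 0 became 0 to 2 when 1 array was left out. The cause of these moves was not tested. The median of all members in young bone lay between -0.025 and 0.0325 when 1 array was left out, on either side of 0. Of the subfamily medians, 30 moved by more than the spread between arrays and 213 did not. With 3 arrays a group, the direction of the ratio unstated and 1 feature for most members, small changes in single genes were not detectable.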
